A study of Mus musculus with 2 samples.

Results

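The dual-specificity MAP kinase phosphatases described here are 9 chosen genes, *Dusp1*, *Dusp2*, *Dusp4*, *Dusp5*, *Dusp6*, *Dusp7*, *Dusp8*, *Dusp10* and *Dusp16*. These genes were taken by gene symbol from an expression table of 37451 genes. They hold 10 entries of the table, because *Dusp8* is listed under 2 Ensembl identifiers. The table comes from control RNA-Seq of bone marrow-derived macrophages (BMDMs), primary macrophages grown from mouse bone marrow with CSF-1, in a study of the mRNA-destabilizing protein TTP (gene *Zfp36*). There is 1 library of WT cells and 1 library of TTP-deficient cells, called ΔM. WT cells came from C57BL/6 littermates, for which the labels give no allele. ΔM cells came from C57BL/6 TTP fl/fl LysMCre mice, in which Cre recombinase, made from the lysozyme M locus, removes TTP in myeloid cells. Donors were 7 to 9 weeks old, and both cultures received 100 μM 4-thiouridine for 16 h and then LPS, at 10 ng/ml, for 6 h. Both sample titles read LPS7, and the time of 6 h is that of the treatment protocol. Each genotype is thus represented by a single library, and no difference between WT and ΔM has a p-value or a replicate check. The comparison asks how much mRNA of each phosphatase macrophages hold during the LPS response with and without TTP.

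These phosphatases remove phosphate from both the threonine and the tyrosine of the activation loop of MAP kinases and thereby switch ERK, JNK and p38 off. Many of them are themselves induced by the signaling they end, so they act as negative feedback in macrophages stimulated through Toll-like receptors. TTP binds AU-rich elements, which are built from the pentamer AUUUA and preferably its extension UAUUUAU, and recruits the mRNA deadenylation machinery.

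TTP sites of 2 of the 9 genes, *Dusp1* and *Dusp16*, could be read from the study's list of PAR-iCLIP binding sites after LPS, a list that was shortened in the copy used. All 8 sites of *Dusp1* and all 5 sites of *Dusp16* matched the NCBIM37 (mm9) genome at their stated positions. The sequences are shown because they place the TTP sites of both genes in different parts of the transcript. The sites of *Dusp1* were in the 3′ UTR, in exon 4, the last exon of the gene on the minus strand of chromosome 17. The following 3 contained the pentamer, and capitals mark ATTTA, the DNA spelling of AUUUA.
Dusp1 chr17:26643113-26643126: gtccttATTTAttt
Dusp1 chr17:26642824-26642843: gtttttacctttATTTAttt
Dusp1 chr17:26642627-26642650: gttgtatgtttgtttATTTAtgat
The remaining 5 sites of *Dusp1* were between 4 and 13 nt long and did not contain it.
The sites of *Dusp16* lay in introns 3 and 4 of its longest annotated transcript, on the minus strand of chromosome 6. Those with the pentamer are given below. The first is 82 nt long and holds 12 AUUUA, the second is 38 nt long and holds 7, and both are shown by 30 bases from the 5′ end.
Dusp16 chr6:134703802-134703883: ggtattaaggggtactttttATTTATTTAt
Dusp16 chr6:134679892-134679929: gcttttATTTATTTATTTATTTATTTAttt
Dusp16 chr6:134679872-134679889: ttATTTATTTAtttccat

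The 3′ UTRs of the 9 genes differed in these motifs, which were counted on the sense strand of the longest protein-coding transcript (GENCODE M1). Each UAUUUAU also contains an AUUUA, and overlapping copies were counted. *Dusp1* had 4 AUUUA and 3 UAUUUAU in a 3′ UTR of 690 nt. Of the 22633 genes with a protein-coding transcript sequence, 2.61% had at least as many UAUUUAU, as did 1.31% of the 2442 genes with a 3′ UTR of similar length. Each of the 3 UAUUUAU of *Dusp1* lay wholly within a TTP site printed above. *Dusp2* had 4 AUUUA and 1 UAUUUAU in 581 nt, and *Dusp8* had 5 and 2 in 2370 nt. No UAUUUAU was found in the other 6 genes. Among these, *Dusp10* and *Dusp16* each had 3 AUUUA, *Dusp4* had 2, *Dusp5* and *Dusp6* had 1 each, and *Dusp7* had 0 in 1778 nt. At least 1 AUUUA was present in the 3′ UTR of 53.3% of the 22633 genes and at least 1 UAUUUAU in 21.0%. Genes without an annotated 3′ UTR were kept among the 22633 with a count of 0, which lowers these shares and the 2.61% above. The 3′ UTR of *Dusp16*, with 2411 nt the longest of the 9, thus held no UAUUUAU.

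**Figure D1:**
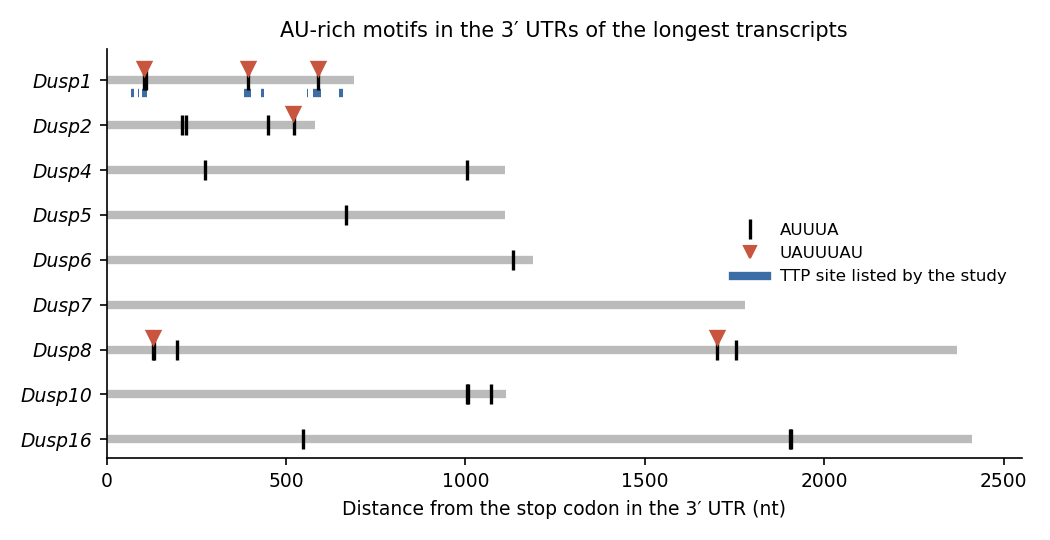
Map of the 3′ UTRs of the 9 phosphatase genes, with the distance from the stop codon in nt on the horizontal axis. Grey bars are 3′ UTRs of the longest transcripts, black ticks AUUUA, red triangles UAUUUAU and blue bars TTP sites listed by the study. *Dusp1* carries 3 UAUUUAU in 690 nt, each with a TTP site under it, while *Dusp7* has no motif in 1778 nt.

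Values are FPKMs (fragments per kilobase of exon, relative to all mapped fragments), which the authors calculated with Cufflinks, so levels are per length and can be set side by side between genes. The steps between low FPKMs gave a depth of about 36900000 fragments in WT and 32700000 in ΔM. *Zfp36* was at 65.3 FPKM in WT and 16.7 in ΔM, a level 3.91-fold lower. Each of 8 macrophage markers was above 1 FPKM in both libraries, and their sum was 4001 FPKM in WT and 2864 in ΔM. Nearly all of this net difference was in *Lyz2*, the locus that carries Cre in ΔM, with 2481 FPKM and 1356 FPKM. Of 21 markers of other cell types, 20 were at most 1 FPKM in both libraries, among them *Ly6g*, *Elane*, *S100a9* and *Cd3e*, all listed at 0. The exception was *S100a8*, a calcium-binding protein of neutrophils and stimulated macrophages, with 50.7 FPKM in WT and 100 in ΔM. Whether the listed 0 of *S100a9* stands for an absent transcript was not tested. The part of *Lyz2* or *S100a8* in the values below was not tested. In bulk samples, fewer cells of a type and less RNA per cell cannot be told apart.

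*Dusp1* mRNA was by far the most abundant of the 9 phosphatase mRNAs in both libraries and was higher in ΔM, with 1.48 times the WT level, whereas *Dusp16* mRNA was lower, with 0.512 times the WT level. *Dusp2* and *Dusp7*, the other genes above 1 FPKM on average, had ratios of ΔM to WT closer to 1. *Dusp4*, *Dusp5*, *Dusp6*, *Dusp8* and *Dusp10* were at or near 1 FPKM or below it in both libraries. For log2 ratios of ΔM to WT, 1 FPKM was added to each value, which understates the change of low genes, and a gene was counted as higher or lower from 1.5-fold on this scale when its mean was at least 1 FPKM. Of the 9 genes, 4 passed this minimum. Of these 4, 0 were counted as higher and 1, *Dusp16*, as lower. Among all 10765 genes with such a mean, 11.2% were higher and 7.51% lower, and among the 8078 protein-coding genes 4.82% were higher and 5.36% lower. The median log2 ratio of the 4 phosphatases was -0.11, from -0.90 to 0.57, beside medians of 0.03 over all genes and -0.0015 over protein-coding genes.

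**Figure D2:**
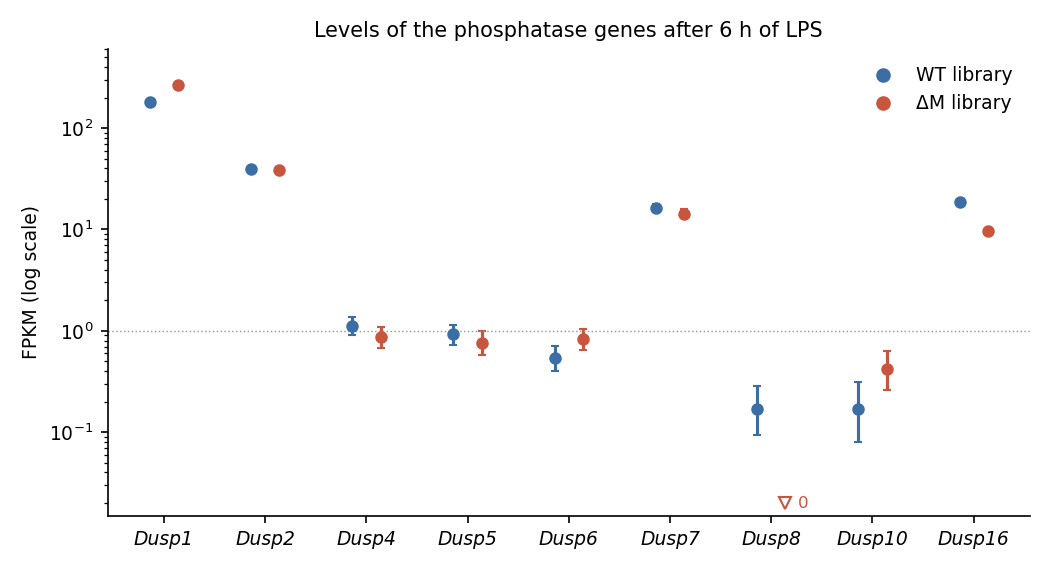
FPKM of each phosphatase gene in the WT library (blue) and the ΔM library (red) on a log axis. Bars are 95% Poisson intervals, which cover counting error only and are hidden by the points of abundant genes, the triangle marks *Dusp8* listed at 0, and the dotted line marks 1 FPKM. *Dusp1* is highest in both libraries, at 181 and 269 FPKM, and *Dusp16* shows separated values of 18.8 and 9.64 FPKM.

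The nuclear, inducible phosphatases are *Dusp1*, *Dusp2*, *Dusp4* and *Dusp5*. *Dusp1* (ENSMUSG00000024190, chr17:26642535-26645464, minus strand, mm9) encodes the phosphatase best known for ending p38 and JNK activity in LPS-stimulated macrophages. It was at 181 FPKM in WT and 269 in ΔM, at a ratio of 1.48. Counting error alone, as a 95% Poisson interval, ran from 178 to 184 FPKM in WT and from 265 to 273 FPKM in ΔM, and from 1.45 to 1.52 for the ratio. The values of both libraries were thus apart by more than the counting error, and the interval of the ratio includes the limit of 1.5-fold used above. Its log2 ratio of 0.57 was above that of 94.8% of protein-coding genes passing the minimum, and above that of 96.5% of the 3039 whose mean reached 10 FPKM. By level, *Dusp1* ranked 191st of 22259 protein-coding genes in WT and 115th in ΔM.

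*Dusp2* (ENSMUSG00000027368, chr2:127161895-127164112, plus strand) encodes a phosphatase mainly of hematopoietic cells. It was at 39.4 FPKM in WT and 38.4 in ΔM, at a ratio of 0.974 with a counting interval from 0.902 to 1.05. The interval includes 1, so a difference was not detectable at this depth. Its log2 ratio was -0.04, near the middle of protein-coding genes, 44.5% of which had a lower one. The level of *Dusp1* relative to *Dusp2* was 4.60 within the WT library and 7.00 within the ΔM library.

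*Dusp4* (ENSMUSG00000031530), which encodes a phosphatase of ERK and JNK, was at 1.12 FPKM in WT and 0.870 in ΔM, at a ratio of 0.777. The counting interval of the ratio, 0.568 to 1.06, includes 1. With a mean of 0.995 FPKM, *Dusp4* lay just under the minimum for the log2 ratios. *Dusp5* (ENSMUSG00000034765), whose product acts on ERK in the nucleus, was at 0.920 FPKM in WT and 0.760 in ΔM. Its ratio of 0.826 had an interval from 0.576 to 1.18, so neither gene showed a difference beyond counting error.

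The summed level of the nuclear, inducible phosphatases was 223 FPKM in WT and 309 in ΔM, at a ratio of 1.39. Without *Dusp1*, the summed level in WT was 41.4 FPKM and the ratio of ΔM to WT 0.966, so the higher sum in ΔM came from *Dusp1*.

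The cytoplasmic phosphatases *Dusp6* and *Dusp7* act on ERK. *Dusp7* (ENSMUSG00000053716, chr9:106270963-106278055, plus strand) was at 16.3 FPKM in WT and 14.3 in ΔM, at a ratio of 0.875. The counting interval reached from 0.763 up to 1 with the median length of its 5 annotated transcripts, and from 0.815 to 0.938 with the longest. A log2 ratio lower than its value of -0.18 was found in 26.3% of protein-coding genes. *Dusp6* (ENSMUSG00000019960), a classical feedback inhibitor induced by ERK itself, was at 0.540 FPKM in WT and 0.830 in ΔM. The ratio of 1.54 rests on about 51.7 fragments in WT and 70.5 in ΔM, and its counting interval ran from 1.06 to 2.25. The sum of both genes, most of it *Dusp7*, was 16.9 FPKM in WT and 15.1 in ΔM, at a ratio of 0.896.

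The phosphatases directed at JNK and p38 are *Dusp8*, *Dusp10* and *Dusp16*. *Dusp16* (ENSMUSG00000030203, chr6:134665488-134742643, minus strand), whose product moves between nucleus and cytoplasm and acts mainly on JNK, was at 18.8 FPKM in WT and 9.64 in ΔM. The ratio was 0.512, with a counting interval from 0.479 to 0.549. Both FPKMs were apart by more than the counting error, which ran from 18.1 to 19.5 FPKM in WT and from 9.11 to 10.2 FPKM in ΔM. Its log2 ratio of -0.90 was among the low values, since 1.72% of protein-coding genes had a lower one, and 1.15% of those whose mean reached 10 FPKM. In rank among protein-coding genes it went from 1886 in WT to 3101 in ΔM.

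*Dusp10* (ENSMUSG00000039384), which encodes a phosphatase of JNK and p38, was at 0.170 FPKM in WT and 0.420 in ΔM, or about 9.78 and 21.4 fragments. The ratio of 2.47 had a counting interval from 1.11 to 5.91, which widened to 0.592 to 13.5 with the shortest annotated transcript and then included 1. An antisense gene within *Dusp10*, *1700056E22Rik*, was at 0.160 FPKM in WT and listed at 0 in ΔM. Whether reads were assigned by strand is not given in the sources used here. *Dusp8*, whose product acts on JNK and p38 and is best known from brain and heart, was at 0.170 FPKM in WT under ENSMUSG00000037887 and listed at 0 in ΔM. Its other entry, ENSMUSG00000043186, overlaps the first on the same strand and was listed at 0 in both libraries. Reads could have been split between these entries, so the level of *Dusp8* is uncertain and no plain ratio is given. For the first entry in ΔM, the 95% Poisson interval of a count of 0 reached up to 0.0501 FPKM with the median transcript length, 0.0245 FPKM with the longest transcript and 0.172 FPKM with the shortest. The summed level of the 3 genes was 19.1 FPKM in WT and 10.1 in ΔM, at a ratio of 0.525 that rests on *Dusp16*.

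**Figure D3:**
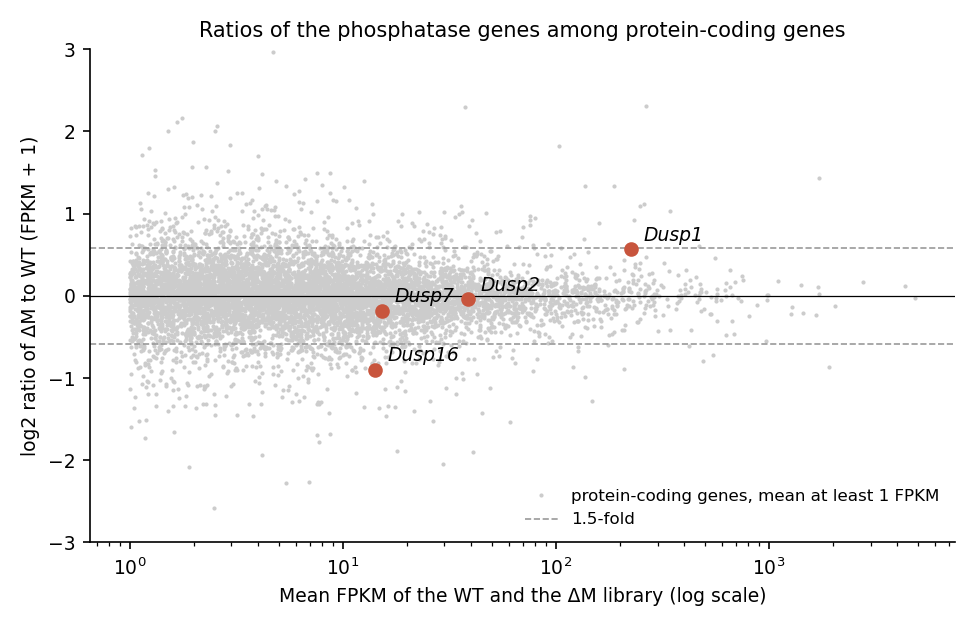
Log2 ratio of ΔM to WT after adding 1 FPKM against the mean FPKM of both libraries (log axis). Grey points are protein-coding genes averaging 1 FPKM or more, red points the 4 phosphatases that passed this minimum, and dashed lines 1.5-fold, and 10 genes outside the drawn range are left out. *Dusp1* lies at the upper line with 0.57, *Dusp16* beyond the lower line with -0.90, and *Dusp2* and *Dusp7* lie between them.

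In WT the order by level was *Dusp1*, *Dusp2*, *Dusp16*, *Dusp7*, *Dusp4*, *Dusp5*, *Dusp6* and then *Dusp8* and *Dusp10* with equal values. With median transcript lengths, neighbors in this order had separate counting intervals, except *Dusp4* and *Dusp5* and the pair of *Dusp8* and *Dusp10*. With its shortest transcript, *Dusp16* had a WT interval from 16.6 to 21.2 FPKM. That interval overlapped the one of *Dusp7* at the median length, 14.9 to 17.8 FPKM. In ΔM the order was *Dusp1*, *Dusp2*, *Dusp7*, *Dusp16*, *Dusp4*, *Dusp6*, *Dusp5*, *Dusp10* and *Dusp8*. The intervals of *Dusp4* and *Dusp6*, of *Dusp6* and *Dusp5*, and of *Dusp5* and *Dusp10* overlapped. *Dusp7* and *Dusp16* thus changed places, with a level of *Dusp7* relative to *Dusp16* of 0.869 in WT and 1.48 in ΔM.

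The composition of the phosphatase mRNAs differed accordingly. All 9 genes together reached 259 FPKM in WT and 334 in ΔM, at a ratio of 1.29, and without *Dusp1* 77.5 FPKM and 65.2 FPKM, a ratio of 0.842. *Dusp1* made up 70.0% of the sum in WT and 80.5% in ΔM. *Dusp2* contributed 15.2% and 11.5%, *Dusp7* 6.32% and 4.28%, and *Dusp16* 7.28% and 2.89%. The level of *Dusp1* relative to *Dusp16*, both with phosphatase activity toward JNK, was 9.63 within the WT library and 27.9 within the ΔM library. Ratios within a library do not depend on the scaling between libraries.

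**Figure D4:**
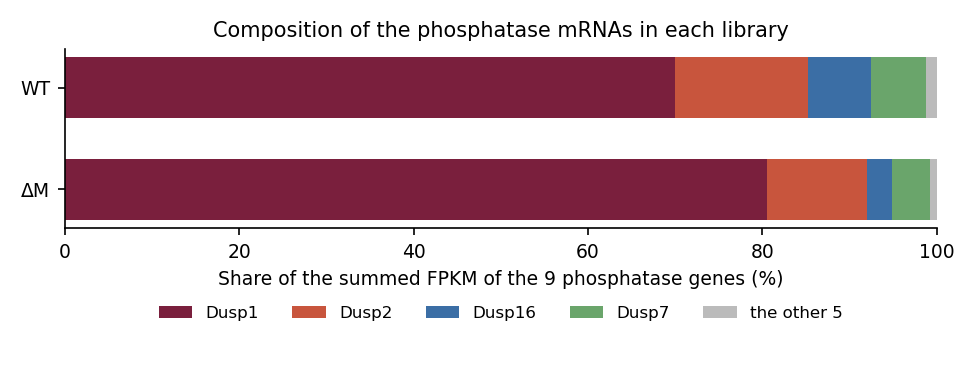
Share of each phosphatase gene in the summed FPKM of the 9 genes, in % on the horizontal axis, for the WT and the ΔM library. *Dusp1* takes 70.0% in WT and 80.5% in ΔM, and the segment of *Dusp16* shrinks from 7.28% to 2.89%.

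Further dual-specificity phosphatases, not all of which act on MAP kinases, and other genes of the MAP kinase pathway were described by lists. Of 17 atypical and other dual-specificity phosphatases, 5 averaged 1 FPKM or more, and of these 0 were counted as higher and 2 as lower, with a median log2 ratio of -0.18. The lower ones were *Dusp12*, an atypical phosphatase with a zinc-binding domain, with 9.09 FPKM in WT and 4.41 in ΔM, and *Dusp22*, known from JNK and T cell receptor signaling, with 2.61 FPKM and 0.980 FPKM. *Dusp11*, an RNA phosphatase and the most abundant gene of this list, was at 58.5 FPKM and 51.6 FPKM, and *Dusp3*, a small phosphatase of ERK and JNK, at 14.0 FPKM and 15.9 FPKM. Of 8 other phosphatases that act on MAP kinases, 5 passed the minimum and 0 were counted as higher or lower (median -0.11). The PP2A catalytic subunits led this list, *Ppp2ca* with 38.2 FPKM in WT and 43.0 in ΔM and *Ppp2cb* with 20.1 FPKM and 14.1 FPKM.

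The kinases that the phosphatases act on, and the kinases that activate these, were described in the same way. Of 10 MAP kinases, 7 passed the minimum and 0 were counted as higher or lower, with a median log2 ratio of -0.06. In plain FPKM, *Mapk7* (5.67 in WT and 3.68 in ΔM) and *Mapk11* (0.780 and 1.30) had ratios of 0.649 and 1.67, and are named after their values were seen. *Mapk14*, which encodes p38α, was at 18.7 FPKM in WT and 17.8 in ΔM. Of 7 MAP kinase kinases, 6 passed the minimum and 0 were counted (median 0.07). The ERK-activating *Map2k1* was at 87.5 FPKM in WT and 81.3 in ΔM, and the JNK-activating *Map2k4* at 84.9 FPKM and 94.8 FPKM. Of 7 Sprouty and Spred inhibitors of ERK signaling, 6 were found in the table and 1 passed the minimum, *Spred1*, with 48.0 FPKM in WT and 45.3 in ΔM. *Spred2*, the next in level, was at 0.910 FPKM and 0.900 FPKM. Of 20 immediate early genes, the rapid transcriptional targets of MAP kinases, 13 passed the minimum, 1 was counted as higher and 0 as lower (median -0.01). The higher one was *Ier3*, an early-response regulator of cell survival, with 27.5 FPKM in WT and 53.3 in ΔM. The plain ratio was 1.54 for *Jun* (2.32 FPKM in WT and 3.58 in ΔM) and 0.657 for *Ier2* (4.87 and 3.20). Both are named after their values were seen. The abundant *Atf3*, a transcription factor, was at 102 FPKM and 109 FPKM, and *Junb*, an AP-1 subunit, at 53.6 FPKM and 52.3 FPKM.

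**Figure D5:**
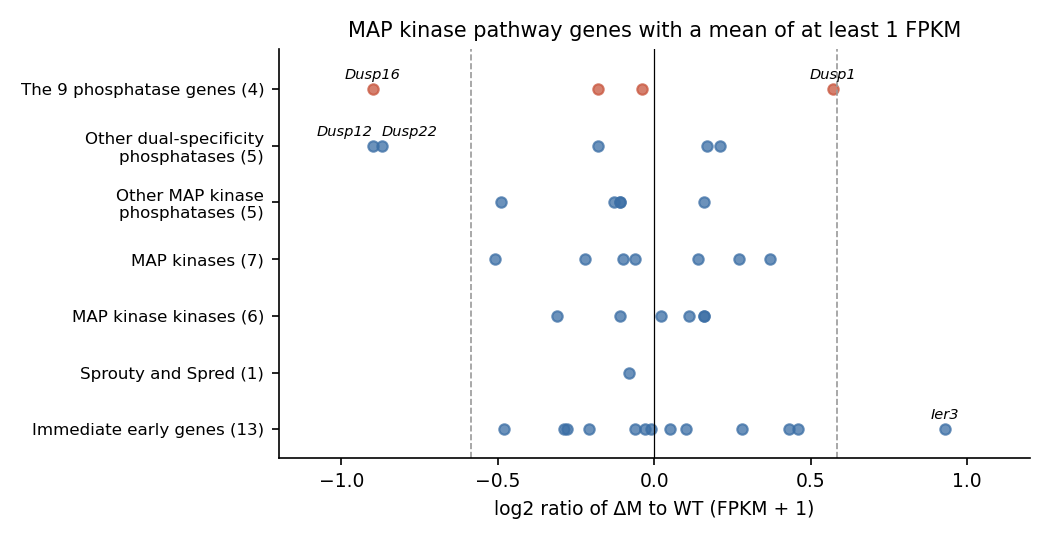
Log2 ratio of ΔM to WT after adding 1 FPKM for the phosphatase genes (red) and the listed genes (blue) that averaged 1 FPKM or more, whose number stands in parentheses. The other dual-specificity phosphatases do not all act on MAP kinases. Each point is 1 gene and dashed lines mark 1.5-fold. Of the listed genes, *Dusp12*, *Dusp22* and *Ier3* lie beyond the lines, as does *Dusp16*.

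The counting intervals do not hold the variation between animals or cultures, which 1 library per genotype cannot give. The FPKMs measure mRNA amount after 6 h of LPS and not its rate of decay. According to the paper, expression and mRNA decay in WT and ΔM cells were also measured with biological replicates, in other libraries. Those measurements were not used here.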

How the data were processed

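Control RNA-Seq was measured in 1 WT and 1 ΔM library. According to the methods, the authors depleted rRNA and trimmed reads with Cutadapt. Segemehl was used for mapping to mm9, and Cufflinks for expression over Ensembl exons from reads with a single map position. The deposited FPKMs have 2 decimals and 1 value per gene. Count models were not applied to them. Gene symbols come from the deposited table. Positions, gene types and transcripts come from GENCODE M1 (NCBIM37), which held 37039 of 37451 identifiers.

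Log2 ratios used a pseudocount of 1 FPKM and a minimum mean of 1 FPKM, and 1 gene without a number in 1 library was left out. Depth was estimated by searching for the number of fragments and the fragment length (200 nt in both libraries) under which low FPKMs of genes with 1 transcript are whole multiples of 1 fragment. This held for 92.3% of 1231 values in WT and 92.4% of 1269 in ΔM, against 15.4% and 14.3% by chance. The search and the fold counts were tested on simulated data. Poisson intervals (95%) used the median annotated transcript length, are approximate and cover counting error only.

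Named genes are all 9 phosphatases, *Zfp36*, list genes past 1.5-fold, the 2 most abundant genes of each list, overlapping genes, and markers, apart from 1 gene of the MAP kinase list that is not reported here. The phosphatases and lists were chosen with earlier results of these data known. Likeness of expression patterns was not calculated over 2 libraries. Site sequences were read from the study's list, and binding scores were not used. Protein sequences were not analysed here. Alternatives covered the pseudocount, scaling, filter, fold and transcript length. Software was Python 3.11.15 with scipy 1.17.1, pandas 2.3.3, numpy 2.4.6 and matplotlib 3.10.9.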

Additional observations from a re-analysis of the deposited data

How the results depend on the processing

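No paired analysis was possible because each genotype has 1 library, and leaving out a library could not be tried either. The log2 ratios of the phosphatases were compared with those under another pseudocount (0.1 FPKM), centring on the median, or upper quartile scaling. All 27 comparisons kept their sign, which could not have come out otherwise and is no check of the ratios. A pseudocount does not alter the sign. Centring took off -0.0015 and scaling multiplied ΔM by 1.003, both too small to reverse even the -0.0365 of *Dusp2*. With a lower limit of 0.32 on the log2 scale, 1 phosphatase, *Dusp1*, was counted as higher in place of 0, and at a fold of 2, 0 were counted as lower in place of 1. Of all genes, 2279 were higher and 1664 lower at the limit of 0.32, 613 and 389 at a fold of 2, 612 and 278 with a mean of at least 10 FPKM, and 389 and 433 among protein-coding genes alone, in place of 1202 and 808. The first entry of *Dusp8* is listed at 0 in ΔM, so the size of its log2 value is set by the pseudocount. This value was -0.23 with 1 FPKM and -1.43 with 0.1 FPKM, and neither is a measure of the change. Over the whole of the shortest protein-coding transcripts, *Dusp8* and *Dusp16* had 0 AUUUA and *Dusp10* had 1. Over the whole of the longest, *Dusp8* and *Dusp16* each had 5 and *Dusp10* had 4. Depth limits the 5 phosphatases with a mean under 1 FPKM, for which at most 105 fragments were estimated in a library.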
